A study of Mus musculus with 8 samples.

Results

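Esx1 is an X-linked homeobox gene that was listed among 9307 genes measured in mouse embryonic fibroblasts, connective tissue cells grown from mouse embryos, and it was chosen by its input and ribosome footprint values, which were higher in cells that overexpress METTL1 and WDR4. The gene was found in the deposited table by its Ensembl identifier (ENSMUSG00000023443), matched without its version suffix to the symbol Esx1, and is 1 of the 9307. Because the choice used those values, the changes of Esx1 between the cell groups are given as a description, without a test. METTL1 places an N7-methyl group on guanosines of certain tRNAs, and WDR4 is the subunit that the enzyme needs for activity. The fibroblasts carried the SV40 T antigen, a viral oncoprotein used to immortalize cells. They were stably transduced with an empty vector (EV) or with pBabe vectors for wild-type METTL1 and WDR4 (OE), and both kinds of cells were kept under puromycin (2.5 µg/mL) and G418 (400 µg/mL), neither of which was present while cells were expanded and lysed. Each was profiled as input RNA and as ribosome-protected fragments (RPF), the pieces of mRNA left inside ribosomes after nuclease digestion, in 2 libraries a group and 8 in all. The labels speak of stable clones and name no separate cultures, so a difference between clones cannot be told apart from an effect of METTL1 and WDR4, and the spread between libraries may be technical only.

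Esx1 encodes a transcription factor of the paired-like (PRD) class, whose homeodomain, a DNA-binding domain, is followed by a proline-rich tail. In the mouse it is known for expression in the trophoblast of the extraembryonic tissues and the placental labyrinth and in male germ cells, and mice that lack it form a defective placenta.

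In build mm10 the gene lies on chromosome X, 137115397 to 137122083, minus strand, and GENCODE release M21 annotates 3 transcripts with different starts. The longest coding sequence is that of Esx1-201 (ENSMUST00000074698.2), with 5 exons, 1600 bases and 382 codons. The start of Esx1-203 lies 1757 bases upstream of that of Esx1-201, and Esx1-202 starts 155 bases downstream of it. The deposited table has 1 value per gene, so which start was used was not measured. The 180 bases that encode the homeodomain (codons 186 to 245) lie in the third, the fourth and the fifth exon, which hold 92, 46 and 42 of them. They are shown because they define the gene as a homeobox gene, with the 18 bases for the conserved core of the DNA-recognition helix in capitals.
Esx1 homeobox: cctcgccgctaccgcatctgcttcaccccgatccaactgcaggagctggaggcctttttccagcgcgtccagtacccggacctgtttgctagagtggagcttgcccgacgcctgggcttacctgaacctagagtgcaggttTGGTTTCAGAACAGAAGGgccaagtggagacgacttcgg
The 137 codons after the homeobox include a repetitive stretch rich in proline codons in the fifth exon (codons 338 to 377). It is shown because a read from it can match Esx1 at more than 1 place, and capitals mark the 40 bases covered by 28-base windows that occur more than once in the transcript.
Esx1 coding end repeat: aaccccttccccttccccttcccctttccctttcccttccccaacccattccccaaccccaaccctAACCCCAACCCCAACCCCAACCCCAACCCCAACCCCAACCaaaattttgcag
The hexamer AACCCC occurs 8 times in this stretch, read on the coding strand only and without overlap.

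Of the 1573 windows of 28 bases in Esx1-201, about the length of a footprint, 13 recurred within the transcript and 4 others occurred in an annotated transcript of another gene. The remaining 98.9% were unique among annotated transcripts, and none of the 1985 exon bases of Esx1 overlapped an exon of another gene. The homeobox itself held no recurring or shared window.

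**Figure D1:**
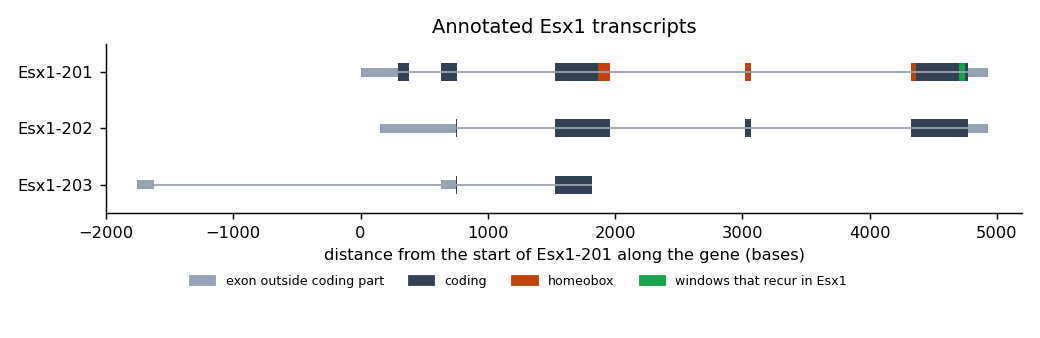
The 3 annotated Esx1 transcripts, drawn to scale by distance in bases from the start of Esx1-201 in the direction of transcription, with exons as boxes, coding parts as taller boxes, the homeobox in orange and the windows that recur within Esx1 in green (both marked on Esx1-201 only). Esx1-201 and Esx1-202 share their last 3 exons, while Esx1-203 ends before the homeobox.

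Esx1 was close to the bottom of the table in EV cells and well inside it in OE cells. All levels that follow are size-factor-normalized reads, which the authors deposited, and the reads behind them were recovered exactly. In the EV input libraries Esx1 had 3.85 and 3.82, each from 3 reads. In the OE input libraries it had 27.3 and 27.96, from 17 and 21 reads. Both OE input libraries were far above both EV input libraries, and the libraries of each group lay close together. In the EV RPF libraries it had 2.64 and 2.26, from 4 and 3 reads, and in the OE RPF libraries 57.6 and 49.4, from 105 and 55 reads. The OE footprint libraries thus held the highest values of the gene and the EV footprint libraries the lowest, with no overlap. Both OE libraries lay above both EV libraries for input in 21.2% of all genes, for RPF in 21.9%, and in both kinds of library in 7.68%, so that this order alone is common.

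**Figure D2:**
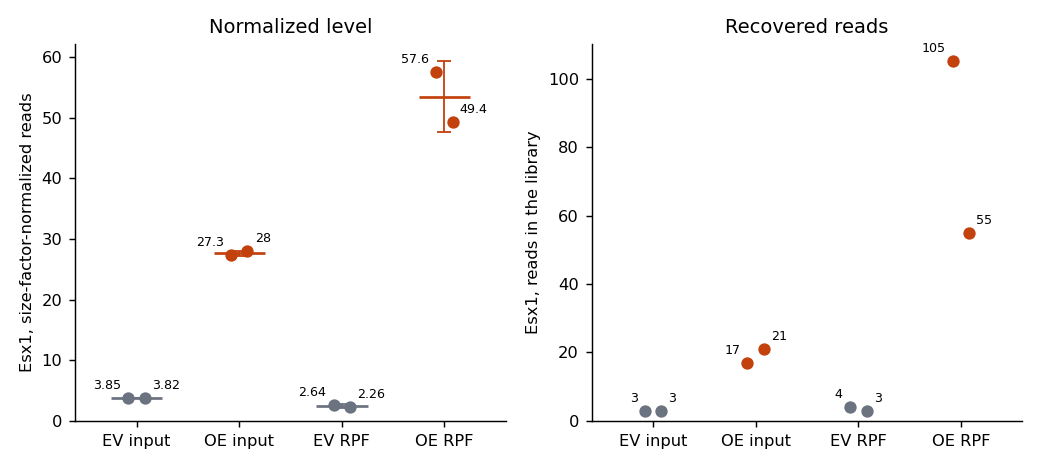
Esx1 in each of the 8 libraries, as size-factor-normalized reads (left, with the mean as a line and the SD of 2 libraries as an error bar) and as recovered reads (right). The 4 EV libraries sit between 2.26 and 3.85 normalized reads, and the 4 OE libraries between 27.3 and 57.6.

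The group means were 3.84 ± 0.0212 in EV input, 27.6 ± 0.467 in OE input, 2.45 ± 0.268 in EV RPF and 53.5 ± 5.82 in OE RPF (SD, n = 2 each). With 3 reads a library, the small SD of the EV input values does not measure their counting error. In EV cells 5.10% of genes had a lower input mean and 3.33% a lower RPF mean. In OE cells 55.9% of genes had a lower input mean and 77.5% a lower RPF mean, both per gene and not per length. The table lists only genes with at least 1 read in every library, so these shares are among genes that were detected throughout.

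From the lowest to the highest, the order of the group means was EV RPF, EV input, OE input and OE RPF. EV RPF and EV input are neighbours in that order, with a ratio of 0.641 from 7 and 6 pooled reads, too few to rank them. The ratio of OE input to EV input was 7.21, from 38 and 6 pooled reads. The ratio of OE RPF to OE input was 1.97, from 160 and 38 pooled reads. The ratio of OE RPF to EV RPF was 22.1, from 160 and 7 pooled reads. The gene was chosen by its rise from EV to OE, which uses the values of both, so no interval is given for these ratios. All 4 ratios are corrected for the size factors. The labels describe no molecular identifiers, so whether each read stands for a separate molecule is not known.

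In the fit across all genes the mRNA change of Esx1, OE against EV, was 2.57 (SE 0.39) and its RPF change 3.98 (SE 0.39), both as log2 differences of (value + 1). Adding 1 lowers the change of a gene with so few EV reads, while the choice of a gene for its strong rise can overstate it. The size of either was not tested. The RPF change was the highest of the 9307 genes and the mRNA change the second highest. Among genes with a mean value of at least 5, the mRNA change of Igfbp4, which binds insulin-like growth factors, ranked directly above Esx1 (2.98) and that of Pkp1, the desmosomal protein plakophilin 1, directly below it (2.37). For RPF, Igfbp4 came next after Esx1 with a change of 2.63. The distance from Esx1 to the next gene was thus wider for footprints than for mRNA. The median change over all genes was -0.0038 for mRNA and -0.0016 for RPF.

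**Figure D3:**
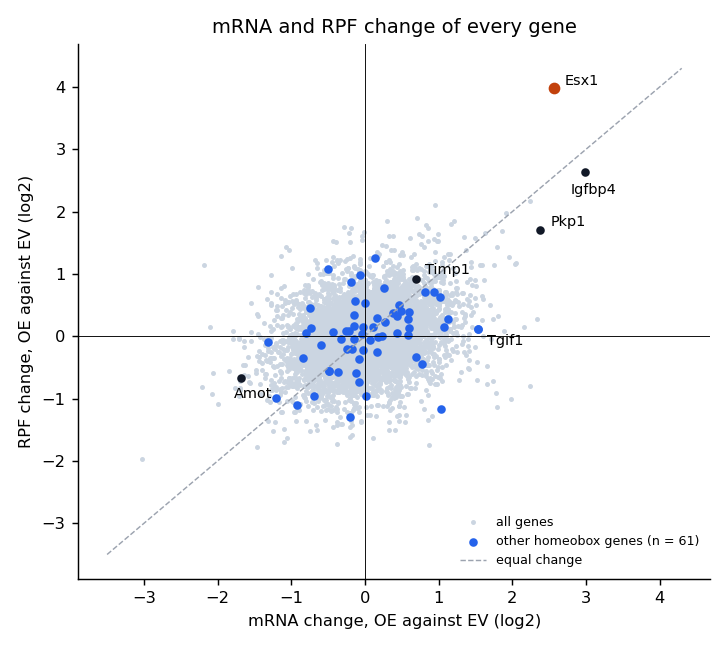
Change in mRNA (x axis) and in RPF (y axis), OE against EV, as log2 differences of (value + 1), for every gene (grey), with the 61 other listed homeobox genes in blue and Esx1 in orange; the dashed line marks equal change. Esx1 lies apart at 2.57 and 3.98, above the line of equal change, while the other homeobox genes lie between -1.31 and 1.53 for mRNA and between -1.29 and 1.25 for RPF.

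Translational efficiency (TE), the RPF value over the input value, was compared within each kind of cell. The ratio of the Esx1 group means was 0.638 in EV cells, lower than that of most genes (26.3% were lower still), and 1.94 in OE cells, where 89.3% of genes were lower. The median gene had a ratio of 1.01 in both. By replicate number, the Esx1 ratio was 0.685 and 0.591 in EV and 2.11 and 1.77 in OE. The TE change was 1.42 (SE 0.55, log2), which ranked 76 of 8582 genes with a mean value of at least 5, between Pcmtd2 and Slc12a9. The authors' deposited table gives a TE log2 fold change of 1.60 for Esx1, the 117th highest of 9307. From the pooled reads the OE ratio was 3.05 times the EV ratio, a value that rests on 13 EV reads. The limma test across all genes called 0 genes for TE (508 at an unadjusted p under 0.05, 1 with edgeR, 0 with DESeq2).

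Codon content was read from Esx1-201, since the tRNA for arginine with the anticodon TCT, which reads the codon AGA, is a known substrate of METTL1. AGA made up 9 of the 382 codons (2.36%), of which 4 lie in the homeobox, and 89.9% of 9298 genes with a coding sequence had a lower share (median 1.06%). Proline codons made up 18.8% of Esx1, against a median of 5.48%, and 99.7% of genes had fewer. The GC content of the coding sequence was 57.2% against a median of 52.7%. Whether any of these features bears on the footprint values was not tested.

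The genes of the METTL1 complex did not pass the limma test in any comparison. The input level of Mettl1 was 16.7 and 14.01 in EV cells, and in OE cells 33.7 and 15.98, the latter close to the EV libraries. Its changes were 0.58 for mRNA (adjusted p = 0.482) and 0.22 for RPF (adjusted p = 0.881). Wdr4 had RPF values of 15.2 and 15.1 in EV and 25.8 and 24.2 in OE, a change of 0.69 (adjusted p = 0.454). Both OE libraries lay above both EV libraries, as in 21.9% of all genes for RPF. Esx1 stood at 27.3 and 27.96 in the same OE input libraries, and whether it follows the level of METTL1 was not tested. Since the species of the METTL1 and WDR4 sequences in the vectors is not given, how far the mouse gene values include vector transcripts is unknown.

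Other homeobox genes give the setting in which Esx1 stands. Of 236 other homeobox genes in a list compiled by class, 61 were listed in the table. Their median change was -0.03 for mRNA and 0.06 for RPF. For mRNA, 1 of the 61 passed the limma test with an adjusted p under 0.05, where 1.5% of all genes did, and for RPF 0 of 61 passed, where 0.956% of all genes did (9 of the 61 at an unadjusted p under 0.05, against 10.2% of all genes; 0 with edgeR and with DESeq2). The share called was close to the background. The 1 was Tgif1, a TALE class repressor of TGF-beta signalling. It stood in EV input at 6.42 and 14.01 and in OE input at 27.3 and 31.95, an mRNA change of 1.53 (SE 0.33, limma adjusted p = 0.0150). Its RPF change was 0.11 (SE 0.33, adjusted p = 0.946). Without either OE input library or without the first EV input library 0 of the 61 passed for mRNA, and 0 passed with edgeR, with DESeq2 or with the 4 input libraries alone, so the Tgif1 call depends on these settings. For RPF 1 of the 61 passed without the second OE RPF library. The smallest p values for RPF, none past the threshold, were those of Cux1, a CUT class regulator (-0.59, adjusted p = 0.165), Tshz1 (0.77, adjusted p = 0.170) and Zeb1, a repressor of epithelial genes (0.53, adjusted p = 0.314). For TE, 0 of 61 passed, where 0.0% of all genes did, and the smallest p values were those of Tgif1 (-1.42), Zhx3 (-2.20) and Lhx6 (1.58), each with an adjusted p of 0.899.

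Of 54 other genes of the PRD class, 6 were listed, and none passed in any comparison. Prrx1, a mesenchymal regulator of limb and craniofacial growth, had the highest levels, with RPF values of 108 and 131 in EV and 117 and 169 in OE and a change of 0.24 (SE 0.18, adjusted p = 0.728). Its relative Prrx2 had an mRNA change of 0.58 and an RPF change of 0.02. Pitx1, a factor of hindlimb identity, stood in input at 15.4 and 15.3 in EV and 3.21 and 9.32 in OE, a change of -1.31 (SE 0.53, adjusted p = 0.250). Gsc, the homeobox gene goosecoid, had RPF values of 6.59 and 8.28 in EV and 2.20 and 2.69 in OE, a change of -1.29 (SE 0.54, adjusted p = 0.357). Alx4 (-0.49 for mRNA, -0.55 for RPF) and Shox2 (-0.48 and -0.56), both limb patterning genes, had negative changes on both measures. The Rhox genes, X-linked PRD class genes of the placenta and germ line, were not among the listed genes.

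**Figure D4:**
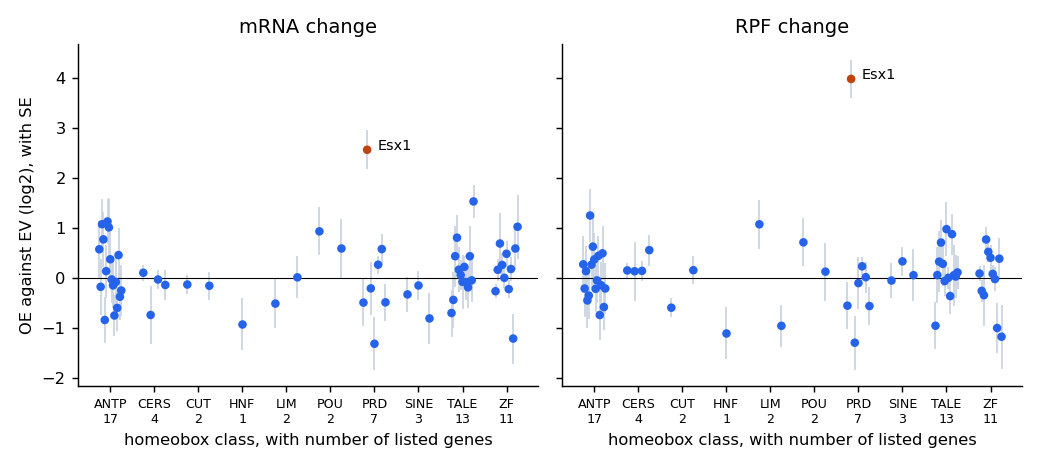
Change in mRNA (left) and RPF (right), OE against EV, as log2 differences with SE, of the 62 listed homeobox genes by class, with Esx1 in orange. Every other gene lies between -1.31 and 1.53 for mRNA and between -1.29 and 1.25 for RPF, and Esx1 lies at 2.57 and 3.98.

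Levels were compared between homeobox genes per length, as normalized reads per kilobase of transcript for input and of coding sequence for RPF. In EV cells Esx1 had 2.40 for input, rank 41 of 62, between Hoxb9 and Six5, and 2.14 for RPF, rank 55 of 62, between Zhx3 and Zfhx4. In OE cells it had 17.3 for input, rank 8, between Tgif1 (also 17.3) and Cux1 (15.7). Its OE RPF level of 46.7 ranked 5 of 62, above Cers6 (41.0), while the highest, Prrx1, had 194. The spread of Esx1 between its OE RPF libraries was 5.82 normalized reads around 53.5 per gene.

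On the X chromosome the genes around Esx1 did not pass the test. The nearest listed gene on the side of lower coordinates, Fam199x, lies 32.9 kb away, at an input level of 2.57 and 11.5 in EV and 16.1 and 10.7 in OE. Its changes were 1.08 (SE 0.47, adjusted p = 0.310) for mRNA and 0.25 (SE 0.47, adjusted p = 0.905) for RPF. The next on that side were Morf4l2, a chromatin complex subunit (-0.07 for mRNA and -0.23 for RPF), Bex3 (-0.41 and -0.20), Tceal9 (-0.25 and -0.30) and Tceal8 (0.43 and -0.20), the last of which lies within 1000 kb. On the other side the nearest was Nrk, a kinase gene of the placenta at 1792 kb (0.29 and 0.46), followed by Mum1l1 (-0.32 and -0.38), Tbc1d8b (-0.53 and -0.09), Morc4 (0.77 and 0.69) and Rbm41 (0.48 and -0.07). None of these 10 genes passed the limma test for mRNA, RPF or TE, and within 5000 kb 0 of 29 listed genes passed for mRNA or RPF. Over all genes 1.5% passed for mRNA, 0.956% for RPF and 0.0% for TE, so that these counts are near the background.

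Of all 292 other listed X-linked genes, 2 passed for mRNA (0.685%, where 1.5% of all genes did) and 1 for RPF (0.342%, where 0.956% did). The median change was -0.07 for mRNA and -0.01 for RPF. Amot, the junction protein angiomotin, fell in input from 42.4 and 40.8 to 11.2 and 13.3, a change of -1.68 (SE 0.25, limma adjusted p = 3.29e-04). Timp1, an inhibitor of matrix metalloproteinases, rose for mRNA (0.70, SE 0.14, adjusted p = 0.00759) and for RPF (0.92, SE 0.14, adjusted p = 4.10e-04). For mRNA 1 X-linked gene passed with the 4 input libraries alone or without the second EV input library and 0 with DESeq2, and for RPF 7 passed with edgeR, 3 with the 4 RPF libraries alone and 0 without the second EV RPF library. For TE 0 of 292 passed. The smallest p values were those of Lonrf3 (1.90), Nbdy (1.87) and Amot (1.02), each with an adjusted p of 0.899.

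**Figure D5:**
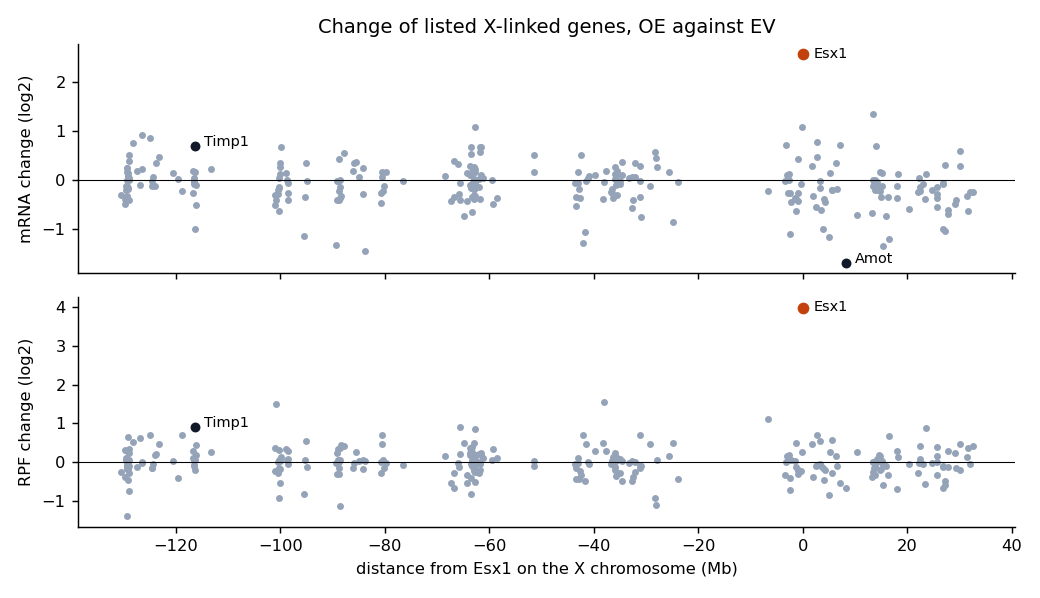
Change in mRNA (top) and RPF (bottom), OE against EV, as log2 differences, of each listed X-linked gene by its distance from Esx1 in Mb, with genes past the threshold in black. Esx1 stands above every other X-linked gene in both panels. The 10 nearest listed genes lie between -0.53 (Tbc1d8b) and 1.08 (Fam199x) for mRNA. For RPF they lie between -0.38 (Mum1l1) and 0.69 (Morc4).

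Genes of the tissues in which Esx1 is normally active were mostly not listed. Of 71 germ line and testis genes, 7 were listed, and 0 passed for mRNA, RPF or TE, with medians of -0.10, -0.07 and 0.03 (at an unadjusted p under 0.05, 2, 1 and 0 of the 7; 0 with edgeR and 0 with DESeq2 for each). Over all genes 1.5%, 0.956% and 0.0% passed, and 13.4%, 10.2% and 5.46% had an unadjusted p under 0.05, so that 0 of 7 is near the background. Those with the smallest p were Maged1 (mRNA change -0.37, adjusted p = 0.0678; RPF change -0.24, adjusted p = 0.379; TE change 0.13), Tdrkh, a tudor protein of the piRNA pathway (1.35 for mRNA, adjusted p = 0.231; TE -0.99), Mageh1 (-0.72 for mRNA, adjusted p = 0.587; TE 0.62), Zcwpw1 (0.38 for RPF, adjusted p = 0.761) and Maged2 (-0.15 for RPF, adjusted p = 0.872). Their summed level was 417 and 453 in EV input and 363 and 375 in OE input, and 634 and 631 in EV RPF and 545 and 574 in OE RPF, so that it was lower in OE where Esx1 was higher. Most of that level is Maged1, with an EV input mean of 312 ± 21.8 (SD, n = 2). It is expressed in many tissues.

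Of 60 trophoblast and placenta genes, 16 were listed. For mRNA 2 passed, both higher, and the median was 0.16, and for RPF 1 passed, higher, with a median of 0.29, where 1.01% and 0.72% of all genes were called higher. Ly6e, the receptor of the cell fusion protein syncytin A in the mouse placenta, rose in input from 41.1 and 35.7 to 81.9 and 74.6, a change of 1.01 (SE 0.16, limma adjusted p = 5.83e-04). Its RPF rose by 0.67 (SE 0.16, adjusted p = 0.0374). Slc16a1, the monocarboxylate transporter MCT1, rose for mRNA (0.69, SE 0.16, adjusted p = 0.0190), with an RPF change of 0.26 (adjusted p = 0.608). Both genes are expressed in many other cells. With DESeq2 0 of the 16 passed for mRNA or for RPF, and the call for RPF was lost without the first or the second EV RPF library and without the first or the second OE RPF library. For mRNA 1 passed with edgeR, with the 4 input libraries alone and without the first EV input, second EV input, first OE input or first EV RPF library. For TE 0 passed, with Bmp4 (1.92), Cited2 (-0.48) and Slc16a1 (-0.43) at the smallest p. The summed level of the list was 433 and 456 in EV input and 496 and 499 in OE input, and 728 and 689 in EV RPF and 780 and 786 in OE RPF. Ly6e had means of 38.4 in EV input and 78.2 in OE input, and Slc16a1 of 51.1 and 83.2. These 2 together rose by more than the list did in input, so the sum of the other listed members was lower in OE input. For RPF most of the rise in the sum came from Ly6e, with means of 107 in EV and 172 in OE. The defining trophoblast factors Elf5, Eomes, Gcm1 and Ascl2 were not among the listed genes, nor was Cdx2.

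The labelled cell type was checked against its markers, and 20 of 24 fibroblast markers were listed. Their summed level was 5860 to 6979 in the input libraries and 10986 to 12455 in the RPF libraries, higher in both OE than in both EV libraries of each kind. The sum is weighted to abundant genes such as Col1a1, which passed for mRNA (0.46, limma adjusted p = 4.20e-04) and RPF (0.39, adjusted p = 0.00380). It was the 1 of the 20 to pass in each. The 20 changes ran from -0.27 to 1.10 for mRNA (median 0.17) and from -0.95 to 0.52 for RPF (median 0.11). Of markers of other cells, 1 of 11 for macrophages, 1 of 9 for endothelium, 2 of 12 for epithelium, 0 of 9 for muscle and 3 of 11 for neural cells were listed. The epithelial pair, Krt18 and Krt19, summed to 7.70 and 12.7 in EV input and 12.8 and 9.32 in OE input, and to 19.8 and 16.6 in EV RPF and 17.6 and 24.2 in OE RPF. These sums hide opposite RPF changes of the pair, -1.18 and 1.45. Both had an unadjusted limma p under 0.05, and neither passed after adjustment. The macrophage gene Csf1r had 5.13 and 2.55 in EV input and 6.42 and 9.32 in OE input, but 6.59 and 4.52 in EV RPF and 2.74 and 0.898 in OE RPF. The neural markers summed to 73.2 and 81.5 in EV input and 89.9 and 94.5 in OE input, and to 81.8 and 73.0 in EV RPF and 96.0 and 93.4 in OE RPF, so that their sum was higher in OE. Of the 3, Tubb3 had changes of 0.88 for mRNA and 1.07 for RPF, Nes of 0.10 and -0.02 and Map2 of -0.29 and -0.29, and none passed. The part of these marker levels in the Esx1 values was not tested. In bulk RNA more cells that express a gene and more RNA per cell cannot be told apart.

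In human cells, a fragment of the ESX1 protein is known to slow the breakdown of cyclins A and B1. The mouse cyclin genes were read as a description of these cells. Ccna2 had a change of -0.19 for mRNA and -0.20 for RPF, and Ccnb1 of -0.23 and -0.31. Neither passed for mRNA, RPF or TE, with adjusted p values in limma of 0.494 and 0.817 for mRNA and 0.589 and 0.829 for RPF.

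The genes whose levels over the 8 libraries were most like those of Esx1 were found by Pearson's r of log2(value + 1) among 8582 genes with a mean value of at least 5, as a description over 8 libraries that fall into 4 groups of 2. The closest was Slc7a6os (r = 0.976), with 20.5 and 21.7 in EV input, 33.7 and 35.9 in OE input, 19.8 and 19.6 in EV RPF and 34.02 and 35.9 in OE RPF. It was followed by Col6a3, a chain of type VI collagen (0.958), Golim4 (0.948), Adck1 (0.945), the mitochondrial folate enzyme Aldh1l2 (0.945), Mdfic (0.942), the sialyltransferase St3gal1 (0.941), Spats2l (0.939), Igfbp4 (0.937) and the matrix protein Emilin2 (0.933). A total of 21 genes had an r above 0.9, and none of the 10 named lies on the X chromosome. Their likeness is in shape and not in size. The RPF changes of the 10 ran from 0.76 in Golim4 to 2.63 in Igfbp4, against 3.98 in Esx1. In 8 of the 10 the RPF change was larger than the mRNA change, by the most in St3gal1 (2.11 against 0.95) and Mdfic (1.65 against 0.74). The difference was only 0.007 (SE 0.55) in Aldh1l2 and 0.03 (SE 0.24) in Col6a3. Since the 10 were picked for a profile like that of Esx1, this count is partly set by the choice and shows no shared trait.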

How the data were processed

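Input and RPF libraries of EV and OE cells were prepared with a ribosome profiling kit after cycloheximide treatment and ribosomal RNA depletion, per the labels' protocols. Per the submitters' processing notes, Bowtie and build mm10 were used. How reads were counted per gene, whether by strand and with which annotation, is not given in the sources used here. Deposited by the authors were 1 signal value per gene and library (reads divided by a size factor), a log2 fold change of TE and an unadjusted p-value. The values were whole multiples of the smallest value of their library (tolerance 1e-06, 100% of values), which gave back the reads. They total 294367 to 371520 per input library and 526699 to 864147 per RPF library in the listed genes. The deposited TE fold changes and p-values differed from a DESeq2 interaction test on the recovered reads by at most 2.18e-05 and 7.47e-06.

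Groups were taken from the sample titles. Of 9309 lines 2 were blank, and 9306 of 9307 identifiers matched GENCODE M21 (mm10). The test was limma 3.58.1 (R 4.3.3, trended variance) on log2(value + 1) in 1 fit of the 8 libraries, without covariates and with a minimum mean of 1, which removed 0 genes, and with Benjamini-Hochberg adjustment over all genes and a threshold of 0.05. On simulated counts for the 9307 genes the fit recovered 76% of 4-fold mRNA changes and 73% of 4-fold RPF changes, but 22% and 32% of 2-fold changes, and called 12 and 1 unchanged genes. edgeR 4.0.16 and DESeq2 1.42.0 were run on the recovered reads as alternatives, with other pseudocounts, a higher minimum mean, TMM scaling, 4 libraries alone, a replicate block and each library left out. Named were Esx1, Mettl1, Wdr4, Ccna2 and Ccnb1, all listed PRD class genes, the 5 nearest listed genes on each side of Esx1, list members past the threshold (up to 6) or else the 3 with the smallest p, the 10 most similar genes, and the genes ranked beside Esx1. Other homeobox genes set beside Esx1 by length were named after their values were seen. The gene, the lists and the tests were chosen with earlier results of these data known. Some genes that this rule names or that rank beside Esx1 are not reported here. Sequences are from GENCODE M21 transcripts.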

Additional observations from a re-analysis of the deposited data

How the results depend on the processing

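Esx1 was higher in OE for mRNA, RPF and TE under every alternative run. The gene was chosen for its rise in these same libraries, so the runs describe how the changes depend on settings and do not test the rise. Its mRNA change moved beyond the SD of a library (0.388) with a pseudocount of 4 (2.01), and its RPF change with a pseudocount of 4 (3.15), edgeR (4.39) and DESeq2 (4.45). With 1 library left out, the mRNA change was 2.55 to 2.58, the RPF change 3.87 to 4.09 and the TE change 1.31 to 1.52. Calls over all genes numbered 140 for mRNA, 89 for RPF and 0 for TE. They were 57, 301 and 1 with edgeR, 21 and 38 (mRNA, RPF) with DESeq2, and 47 and 174 with the 4 libraries of the comparison. With 1 library left out they were 50 to 156, 16 to 100 and 0 to 5. The lowest were without the second EV input library (mRNA) and the second EV RPF library (RPF), and the 5 for TE were without the second OE RPF library. Homeobox calls for mRNA were 0 with edgeR, DESeq2 or 4 libraries (0 to 1 with a library left out, 0 to 1 for RPF). X-linked calls were 0 for mRNA with DESeq2 and 1 with 4 libraries (1 to 3 with a library left out), and for RPF 7 with edgeR and 3 with 4 libraries (0 to 1 with a library left out). Trophoblast calls were 1 (mRNA) and 3 (RPF) with edgeR, 0 and 0 with DESeq2, and 1 for mRNA with 4 libraries (1 to 3 for mRNA and 0 to 1 for RPF with a library left out). The causes were not tested. Replicate deviations of the groups correlated between -0.0194 and 0.0274. The median gene had 15 to 38 reads a library, where counting error can hide a shared culture. These correlations therefore cannot decide whether samples with the same replicate number are paired. With the replicate block the calls were 137 and 88 and the Esx1 changes stayed at 2.57, 3.98 and 1.42. Depth limits the EV values of Esx1 most, at 3 or 4 reads a library.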
